A study of Homo sapiens with 4 samples.

Results

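The zinc finger gene clusters of human chromosome 19 were examined for open chromatin over the first hours of mesendoderm differentiation. The cells were H1, an established line of human embryonic stem cells. They were taken as 5 windows on build hg19: 20000000 to 24400000 (band 19p12), 36700000 to 38400000 (19q13.12 to 19q13.13), 44300000 to 45000000 (19q13.31), 52300000 to 54200000 (19q13.41 to 19q13.42) and 56600000 to 59128983 (19q13.43). A region was a merged stretch of overlapping or book-ended peaks from any of the 4 deposited lists. The windows held 339 of the 3723 regions on chromosome 19 and of 87966 in all. The remaining 3384 regions of chromosome 19 served as the comparison set. The choice of windows used position alone and no measured value.

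Accessibility was measured by ATAC-seq, in which a transposase cuts and tags open DNA, with 1 library for each of 4 groups. Control cells stayed in N2B27 medium with 20 ng/ml basic fibroblast growth factor. The other groups spent 6 h in B27 medium, listed without N2 and without that factor, with Activin A at 25 ng/ml, Wnt3a at 25 ng/ml, or both at 25 ng/ml each. Ligand and medium thus changed at once, and in any comparison with control they cannot be told apart. The lists held 26223, 75585, 21078 and 58382 peaks in control, Activin A, Wnt3a and combined libraries, of which 8798 in all lay on chromosome 19. Depth is unknown. With single libraries no test between groups was possible; intervals are 95% intervals that cover counting error only, and neighbouring regions within a window are not independent.

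KRAB zinc finger proteins form the largest family of human transcriptional repressors. Each binds DNA through an array of C2H2 zinc fingers and recruits the corepressor TRIM28 through its KRAB domain, which leads to trimethylation of histone H3 at lysine 9. Many bind transposable elements and keep them silent in embryonic stem cells. The genes arose by repeated local duplication and stand in long rows, in which the promoters are typically CpG-rich and open while the zinc finger exons are themselves packed in heterochromatin.

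In the RefSeq gene table, 267 of 1451 protein-coding genes on chromosome 19 (18.4%) carried a zinc finger family symbol, which was 47.3% of the 564 such symbols in the genome. Symbols were matched by name alone and a KRAB domain was not checked. In what follows, the family means the genes with such a symbol, not the KRAB genes alone. Of these, 213 stood in 18 uninterrupted rows of 5 or more. The longest row ran from ZNF737 to ZNF681 and held 27 genes, among them ZNF91, and rows of 24 genes (ZNF565 to ZNF793), 23 genes (ZNF772 to ZNF256) and 20 genes (ZNF283 to ZNF180) followed elsewhere on the chromosome. Another row of 24 genes, from ZNF627 to ZNF791, belongs to the known cluster of 19p13.2, outside the 5 windows. This table is on build GRCh38.p14 and the peaks are on hg19, so it gave names and gene order only. No peak was assigned to a gene, and the zinc finger content of the windows and the identity of the cells were not checked against gene positions.

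Of 6 searched motifs, the ETS core differed most in frequency between the promoters of the family and other promoters of the chromosome, with no test made. In the RefSeq promoter table (250 bases before to 50 after each gene start), 230 of the 267 genes had an entry. CCGGAAG on either strand, the core letters of an ETS-family site, was present in 102 of these 230 promoters (44.3%), against 122 of 955 other promoters of chromosome 19 (12.8%) and 14.2% of all 15843 promoters of protein-coding genes. GGGCGG, the core of an SP-family site, was about as common in each set, at 67.0%, 66.1% and 58.5%. TGACGTCA (the CRE), the site of NRF1, CTTTGAT (TCF/LEF) and GTCTAGAC (SMAD), also on either strand, were each present in 3.04% of the family's promoters or fewer. Median G+C was 60.2% in the family and 64.0% in the other promoters of the chromosome.

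The 250 bases upstream of 3 family members are printed to show what such a promoter looks like, with GGGCGG and CCGGAAG on either strand in capitals. ZNF91 (chr19:23395472-23395721, minus strand) and ZNF93 (chr19:19900696-19900945, plus strand) map to 19p12 and silence SVA and LINE-1 retrotransposons, respectively. ZNF587 (chr19:57849609-57849858, plus strand) maps to 19q13.43 and binds endogenous retroviruses. Coordinates and sequences are those of RefSeq on GRCh38.p14, and none was matched to a peak.
ZNF91: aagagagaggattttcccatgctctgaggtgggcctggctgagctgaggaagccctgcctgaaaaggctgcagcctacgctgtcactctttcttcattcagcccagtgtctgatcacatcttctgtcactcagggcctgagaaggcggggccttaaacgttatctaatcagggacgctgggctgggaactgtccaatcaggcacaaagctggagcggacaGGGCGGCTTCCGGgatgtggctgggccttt
ZNF93: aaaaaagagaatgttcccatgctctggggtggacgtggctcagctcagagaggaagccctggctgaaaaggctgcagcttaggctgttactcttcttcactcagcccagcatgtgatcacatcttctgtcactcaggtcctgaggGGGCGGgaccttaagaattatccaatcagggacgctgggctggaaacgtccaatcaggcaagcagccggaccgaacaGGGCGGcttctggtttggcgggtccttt
ZNF587: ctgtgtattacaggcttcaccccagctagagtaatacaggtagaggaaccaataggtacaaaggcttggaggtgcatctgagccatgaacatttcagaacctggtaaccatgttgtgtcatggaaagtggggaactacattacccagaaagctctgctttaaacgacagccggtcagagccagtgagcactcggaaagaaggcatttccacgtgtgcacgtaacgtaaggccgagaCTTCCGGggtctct
The ZNF91 stretch has 1 SP match directly followed by 1 ETS match, the ZNF93 stretch has 2 SP matches and the ZNF587 stretch has 1 ETS match. A match is a description of letters and does not show that a factor binds there.

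Open regions were sparse in the windows and were spread in rows broken by long empty stretches. Median distance between neighbouring regions was 38.6 kb in 19p12 (middle 50% of distances 15.4 to 77.8 kb), 35.8 kb in 19q13.12 to 19q13.13 (11.3 to 58.9), 21.2 kb in 19q13.31 (17.0 to 43.8), 16.3 kb in 19q13.41 to 19q13.42 (3.9 to 27.5) and 10.5 kb in 19q13.43 (3.6 to 21.8). In the rest of the chromosome it was 5.2 kb. Regions within 5 kb of the next made up 9.26% of distances in 19p12 and 33.6% in 19q13.43, against 48.6% in the rest. Within the windows, the longest stretch without a peak in any of the 4 lists was in 19p12, 1222 kb from 22035439 to 23257535. The next was 533 kb in 19q13.43, from 57149837 to 57683140. The rest of the chromosome also had long empty stretches, the longest of 747 kb when distances across the centromere or a window are left out. Across the centromere, the first region beyond the end of 19p12 lay 3331.7 kb from that boundary. Whether reads can be placed uniquely in these stretches was not tested.

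**Figure D1:**
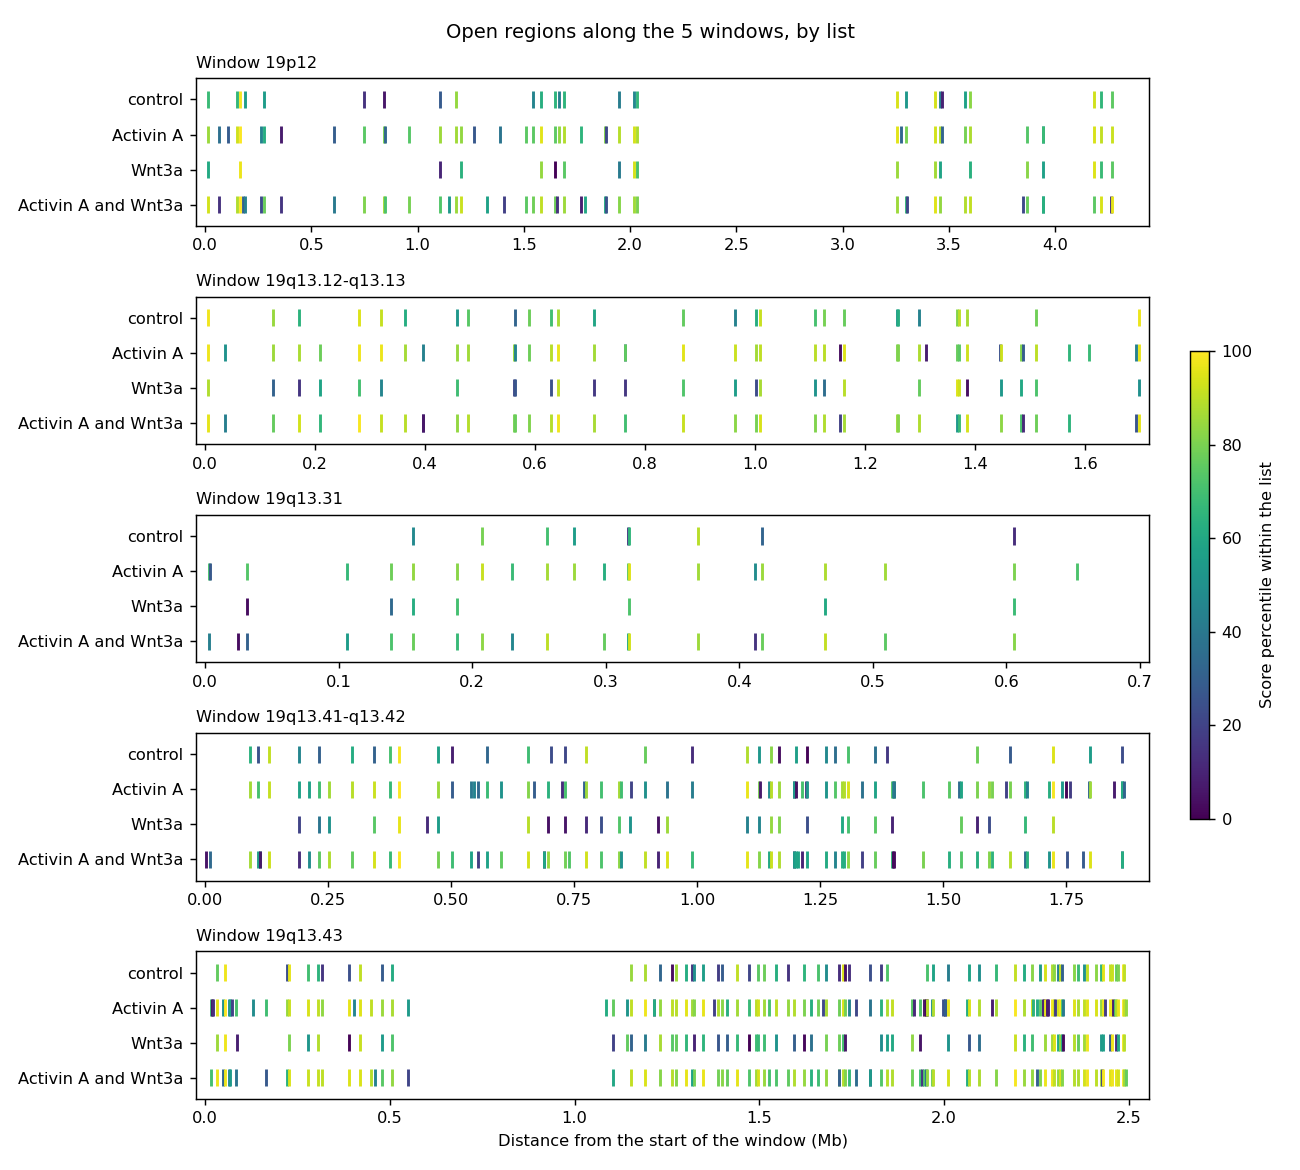
Position of each open region along the 5 windows, as distance from the window start in Mb; rows are the 4 lists and colour is the percentile of the region's best peak score within its list. The empty stretches of 1222 kb in 19p12 and 533 kb in 19q13.43 are shared by all 4 lists, and many columns of marks run through all 4 rows.

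At the edges of the windows the nearest regions inside lay 1.6 to 129.5 kb from the boundary, and the nearest outside 1.3 to 3331.7 kb, the latter across the centromere. The region just inside the start of the 19q13.12 window (36705036 to 36706441) stood at the 97.7th, 97.6th, 88.0th and 96.0th percentile of the control, Activin A, Wnt3a and combined lists. Its neighbour outside (36681156 to 36681774) had a peak only in the Activin A list, at the 46.6th percentile. At the end of the 19q13.31 window the order was the reverse. The last region inside (44952217 to 44952950) was in the Activin A list alone, and the first outside (45003564 to 45005288) was in all 4 lists, at the 92.5th, 95.9th, 83.6th and 93.3rd percentile.

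Every list had fewer regions per megabase in the windows than in the rest of the chromosome. The windows span 11.2 Mb of chromosome 19 and held 9.11% of its regions. The sparsest of them, 19p12, spans 4.40 Mb and lowers the pooled density, and the ratio without it was not computed. In control it had 6.14 regions per Mb. The other 4 windows, in order along the chromosome, had 16.5, 12.9, 17.9 and 26.5, the last above the rest. Control had 165 regions in the windows, or 14.7 per Mb, against 24.9 per Mb in the rest, a ratio of 0.590. The ratio was 0.429 in the Activin A list (304 regions, 27.1 against 63.1 per Mb), 0.634 in the Wnt3a list (149 regions, against 20.9 per Mb in the rest) and 0.516 in the combined list (275 regions, 24.5 against 47.5 per Mb). Leaving the centromeric bands out of the rest, an alternative chosen after the values were seen, gave 0.539, 0.392, 0.579 and 0.471.

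The lower ratios of the longer lists were not seen among the best peaks. When each list was cut to its 21078 best-scoring peaks, the length of the shortest list, the control ratio was 0.609, the Activin A ratio 0.625, the Wnt3a ratio 0.631 and the combined ratio 0.718. The windows then held 146, 173, 149 and 186 regions in that order, so that the combined list had the most and control the fewest. The rest of the chromosome held 1023, 1180, 1007 and 1105 regions at that length, with the Activin A list highest.

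**Figure D2:**
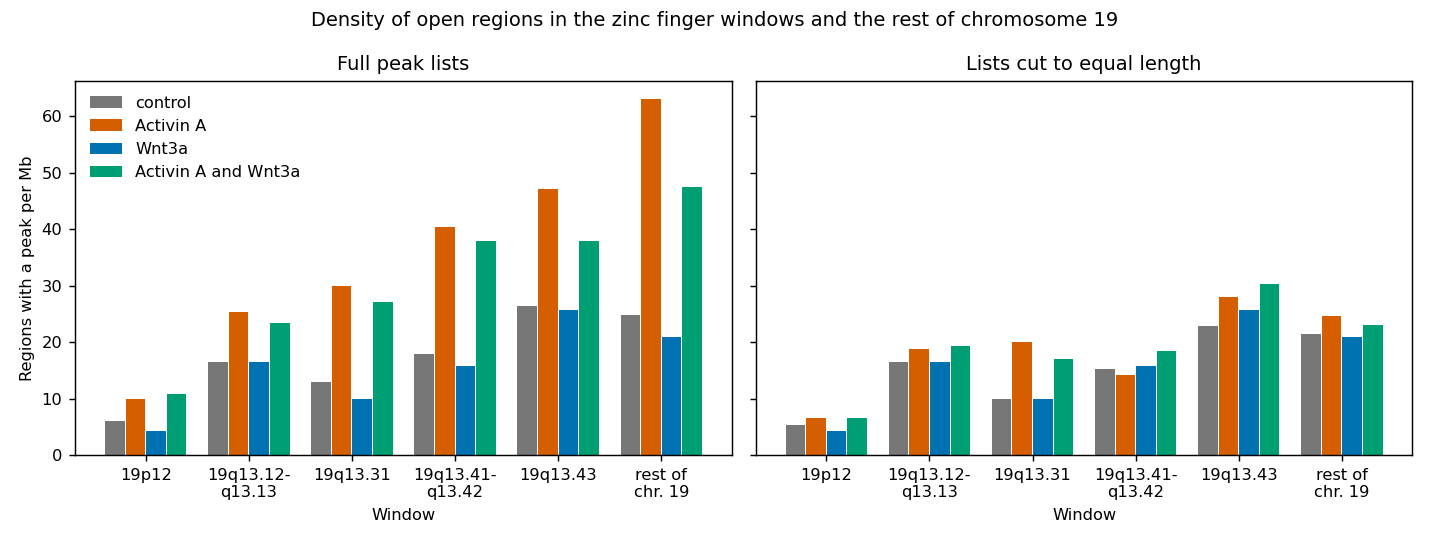
Regions with a peak per Mb in each window and in the rest of chromosome 19 for the 4 lists, in full (left) and cut to equal length (right). 19p12 is the sparsest window in both panels, at 4.32 to 10.9 regions per Mb in the full lists, and the excess of the Activin A and combined lists over control is smaller in the right panel.

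The windows differed from each other more than the pooled values show. 19p12, the largest, had 55 regions (12.5 per Mb over the 4 lists), with 27 in the control list, 44 and 19 in those of Activin A and Wnt3a, and 48 in the combined list. The 19q13.12 to 19q13.13 window had 44 regions (25.9 per Mb), with 28, 43, 28 and 40 in the same order. In the smallest window, 19q13.31, 22 regions (31.4 per Mb) were found, with 9, 21, 7 and 19. The 19q13.41 to 19q13.42 window had 92 regions (48.4 per Mb), with 34, 77, 30 and 72. The last window, 19q13.43, had 126 regions (49.8 per Mb), with 67, 119, 65 and 96, and its control density of 26.5 per Mb exceeded the 24.9 of the rest of the chromosome. At equal list length it was denser than the rest in every list. Its densities were then 22.9, 28.1, 25.7 and 30.4 per Mb, against 21.4, 24.6, 21.0 and 23.1. The other windows were each sparser than the rest in every list at that length.

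Regions in the windows ranked high within the 2 long lists. The score of a peak may grow with depth, so it was read only as a percentile within its own list. The median percentile of the windows' regions was 77.9 for Activin A and 77.8 for the combined treatment, against 61.9 and 62.6 in the rest of the chromosome. In control it was 64.2 against 60.0, and in the Wnt3a list 61.1 against 60.3. In the Activin A list 159 of 304 regions (52.3%, 46.5 to 58.0) were in the highest 25% of scores, and in the combined list 153 of 275 (55.6%, 49.5 to 61.6), compared with 35.8% and 35.5% in the rest and 25.5% and 25.7% of all regions. In control 58 of 165 (35.2%, 27.9 to 43.0) reached it, against 34.8% in the rest and 26.1% of all, and in the Wnt3a list 44 of 149 (29.5%, 22.3 to 37.5), against 35.3% and 26.2%. At equal list length the order turned: 24.9% of the windows' Activin A regions and 28.0% of their combined regions were then in the highest 25%, against 32.1% and 31.8% in the rest.

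By window in the full lists, the 19q13.12 to 19q13.13 regions ranked highest in the Activin A list, with 31 of 43 (72.1%, 56.3 to 84.7) in the highest 25%, and those of 19q13.41 to 19q13.42 lowest, with 23 of 77 (29.9%, 20.0 to 41.4). In the combined list the same windows had 28 of 40 (70.0%, 53.5 to 83.4) and 26 of 72 (36.1%, 25.1 to 48.3). The Wnt3a list differed: in the 19q13.12 to 19q13.13 window only 7 of its 28 regions (25.0%, 10.7 to 44.9) were in the highest 25%, although 15 of 28 in control were (53.6%, 33.9 to 72.5). Neither order held at equal list length. There 19q13.43 was highest for Activin A (25 of 71, 35.2%) and 19q13.31 lowest (1 of 14), while 19q13.12 to 19q13.13 had 7 of 32 (21.9%) for Activin A, 7 of 28 for Wnt3a (25.0%), 9 of 33 with both ligands (27.3%) and 10 of 28 in control (35.7%).

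With the windows pooled, strong peaks were narrower than strong peaks elsewhere on the chromosome in all 4 lists. Among peaks in the highest 25% of scores the median widths in the windows were 972, 1038, 857 and 1152 bp for the control, Activin A, Wnt3a and combined lists, against 1057, 1209, 949 and 1298 bp in the rest. By window, 19q13.41 to 19q13.42 went the other way in the control list (1180 bp, 8 peaks) and the combined list (1302 bp, 26 peaks). Over peaks of any score the order was the reverse in 3 lists: 742 against 717 bp for control, 832 against 783 bp for Activin A and 956 against 816 bp for the combination, with 649 against 660 bp for Wnt3a. The middle 50% of widths overlapped widely, for example 720 to 1180 bp in the windows and 620 to 1122 bp in the rest for the combined list.

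A larger share of the windows' regions was open in every library. Of the 339 regions, 113 (33.3%, 28.3 to 38.6) had a peak in all 4 lists, against 743 of 3384 (22.0%, 20.6 to 23.4) in the rest of the chromosome and 14.8% of all regions, a difference from the rest of 11.38 percentage points (6.36 to 16.73). The share was 23 of 44 (52.3%, 36.7 to 67.5) in 19q13.12 to 19q13.13 and 54 of 126 (42.9%, 34.1 to 52.0) in 19q13.43, and 17 of 92 (18.5%, 11.1 to 27.9) in 19q13.41 to 19q13.42 and 3 of 22 (13.6%, 2.91 to 34.9) in 19q13.31. The difference fell to 5.74 points (-0.01 to 12.25) without 19q13.43, an interval that includes 0, and rose to 16.91 without 19q13.41 to 19q13.42. It was 4.69 points at equal list length and 1.99 in the upper 50% of each list, again with intervals that include 0. Regions strong in all 4 lists were no more frequent than elsewhere on the chromosome, 25 of 339 (7.37%, 4.83 to 10.7) against 8.07%, with 3.93% over all regions.

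Of the 339 regions, 57 (16.8%, 13.0 to 21.2) were shared by the Activin A and combined lists alone, against 21.8% in the rest and 21.9% of all. In the Activin A list alone there were 54, or 15.9% (12.2 to 20.3), against 27.9% (26.4 to 29.4) in the rest and 30.1% of all. Regions found only with both ligands numbered 27 (7.96%, 5.31 to 11.4), near the 7.68% of the rest and below the 12.4% of all. A further 30 (8.85%, 6.05 to 12.4) were in all 3 treated lists and not in control, against 5.59% and 5.24%. Few regions were in control alone, 2 (0.590%) against 1.65% and 2.55%, or in the Wnt3a list alone, 3 (0.885%) against 0.798% and 0.933%.

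A region present in a treated list and absent from control counts here as gained, and the opposite case as lost. In the windows 143 of 304 Activin A regions (47.0%, 41.3 to 52.8) were gained, against 1899 of 3022 (62.8%, 61.1 to 64.6) in the rest of the chromosome and 70.0% of all regions. This difference of -15.8 points (-21.6 to -9.92) shrank when regions of like score were compared. With the rest weighted to the score quartiles of the windows' regions, 51.4% would be gained, which left -4.38 points (-10.1 to 1.41). Cutting the lists to equal length gave an unweighted difference of -4.67 points with an interval that included 0, and keeping the upper 50% of each list gave -9.68 points.

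Within score quartiles of the Activin A list the windows and the rest followed nearly the same course. In the lowest quartile 34 of 35 regions of the windows (97.1%, 85.1 to 99.9) lacked a control peak, against 96.0% in the rest. In the second it was 37 of 42 (88.1%, 74.4 to 96.0) against 90.2%, and in the third 48 of 68 (70.6%, 58.3 to 81.0) against 73.9%. In the highest it was 24 of 159 (15.1%, 9.92 to 21.6) against 21.7% (19.3 to 24.3) and 22.1% of all regions. Gains per window ran from 15 of 43 (34.9%, 21.0 to 50.9) in 19q13.12 to 19q13.13 to 45 of 77 (58.4%, 46.6 to 69.6) in 19q13.41 to 19q13.42.

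**Figure D3:**
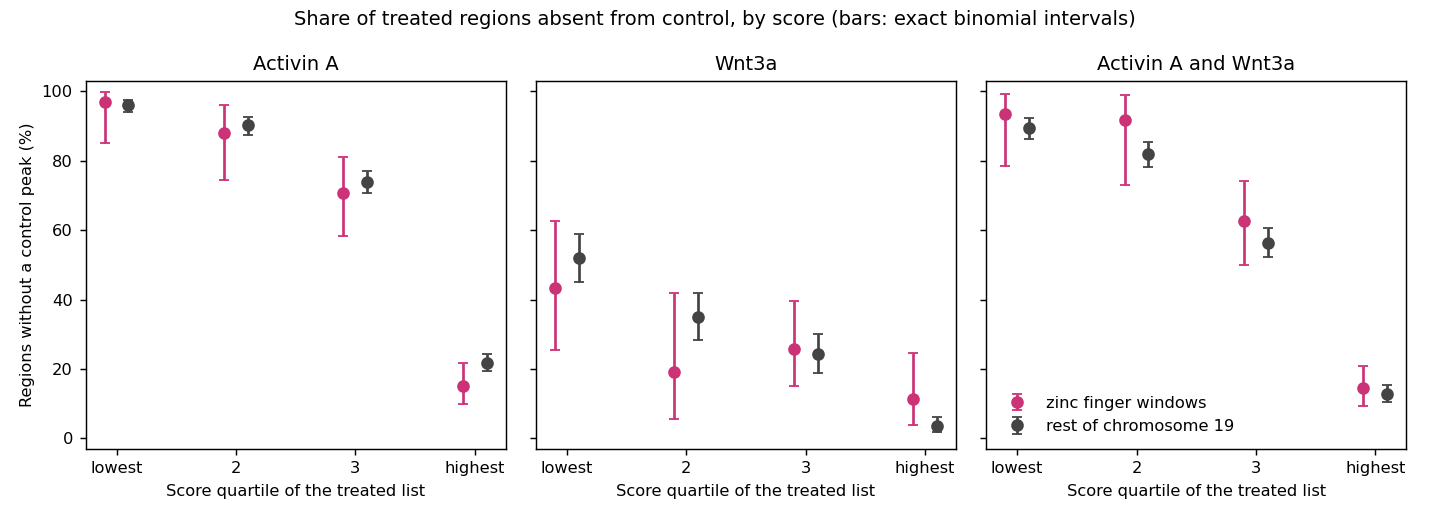
Percentage of treated regions without a control peak in each score quartile of the treated list, for the zinc finger windows and the rest of chromosome 19; error bars are exact 95% intervals. The share falls with score in the rest, after Activin A from 96.0% to 21.7%, and the intervals of the 2 sets overlap in each quartile.

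Wnt3a gave a gained share in the windows near that around them. Of 149 Wnt3a regions 36 (24.2%, 17.5 to 31.8) had no control peak, against 251 of 1003 (25.0%, 22.4 to 27.8) in the rest and 33.1% of all regions, a difference of -0.86 points (-7.63 to 7.04) and of -1.10 points (-7.73 to 6.58) at matched score. Without 19q13.41 to 19q13.42 it was -5.70 points (-12.39 to 2.72) and without 19q13.43 it was 4.74 (-4.41 to 15.54). The score quartiles did not move together. In the highest quartile 5 of 44 (11.4%, 3.79 to 24.6) were gained against 13 of 354 (3.67%, 1.97 to 6.20) in the rest and 5.12% of all, while in the second 4 of 21 were, against 35.0%. In the upper 50% of each list the difference turned to 12.50 points (2.91 to 22.91). Gains made up 13 of 30 (43.3%, 25.5 to 62.6) in 19q13.41 to 19q13.42 and 4 of 7 in 19q13.31, but 11 of 65 (16.9%, 8.76 to 28.3) in 19q13.43.

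With both ligands 115 of 275 regions (41.8%, 35.9 to 47.9) were gained, against 1191 of 2273 (52.4%, 50.3 to 54.5) in the rest and 62.5% of all regions. The difference of -10.58 points (-16.62 to -4.33) changed sign at matched score, where 38.1% would be gained and the difference was 3.71 points (-2.19 to 9.78). It also changed sign at equal list length, to 1.79 points, and was -1.51 in the upper 50% of each list, both with intervals that include 0. Without 19q13.43 it was -4.35 points (-11.84 to 3.21). Where absence meant no control peak within 1 kb, the matched difference was 6.11 points (0.25 to 12.17). Gains were few in 19q13.12 to 19q13.13 (12 of 40, 30.0%, 16.6 to 46.5) and 19q13.43 (29 of 96, 30.2%, 21.3 to 40.4) and more common in 19p12 (23 of 48, 47.9%, 33.3 to 62.8), 19q13.41 to 19q13.42 (40 of 72, 55.6%, 43.4 to 67.3) and 19q13.31 (11 of 19, 57.9%, 33.5 to 79.7).

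Of the 115 regions gained with both ligands, 87 (75.7%, 66.8 to 83.2) had an Activin A peak as well, close to the 77.7% of the rest of the chromosome and above the 68.1% of all such regions. In the Wnt3a list 31 (27.0%, 19.1 to 36.0) were found, against 16.3% (14.2 to 18.5) in the rest and 14.0% of all. Neither single ligand had a peak at 27 (23.5%, 16.1 to 32.3), against 21.8% and 31.1%. Of those 27, 10 lay in 19p12, where they were 43.5% (23.2 to 65.5) of that window's 23 combined gains. The gains of the 3 treatments share 1 control list.

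Among the treated lists, overlap was larger in the windows than in the rest of the chromosome. Of the 304 Activin A regions 245 (80.6%, 75.7 to 84.9) were also found with both ligands, against 66.0% in the rest and 60.6% of all, and 145 (47.7%, 42.0 to 53.5) were also found with Wnt3a, against 32.1% and 25.4%. Of the 275 combined regions 245 (89.1%, 84.8 to 92.5) were shared with Activin A, against 87.7% and 79.0%, and 144 (52.4%, 46.3 to 58.4) with Wnt3a, against 41.2% and 32.1%. Nearly all of the 149 Wnt3a regions recurred, 145 (97.3%, 93.3 to 99.3) with Activin A, against 96.8% and 94.0%, and 144 (96.6%, 92.3 to 98.9) with both ligands, against 93.4% and 90.7%. The wider gaps were those measured as a share of the 2 long lists, in which the windows' regions also ranked higher.

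Control regions of the windows were seldom missing from the Activin A and combined lists. After Activin A 4 of 165 (2.42%, 0.664 to 6.09) were lost, against 70 of 1193 (5.87%, 4.60 to 7.36) in the rest and 11.5% of all regions. After both ligands 5 (3.03%, 0.991 to 6.93) were lost, against 111 (9.30%, 7.72 to 11.1) and 15.2%. The difference from the rest was -3.44 points (-5.54 to 0.391) after Activin A and -6.27 points (-8.76 to -2.12) after both, and -2.70 (-4.46 to 0.966) and -5.24 (-7.28 to -1.34) at matched control score. At equal list length it widened to -7.71 and -11.72 points. After Activin A it shrank to -1.41 (-3.46 to 3.29) in the upper 50% of each list and was -4.34 (-6.19 to -0.29) without 19q13.41 to 19q13.42. After both ligands it was -4.20 points (-7.61 to 2.27) without 19q13.43, and -3.11 (-6.54 to 3.29) at matched score. Both intervals include 0, on fewer regions, since 19q13.43 held 67 of the 165 control regions. No control region was missing with both ligands in 19q13.43 (0 of 67) or in 19q13.12 to 19q13.13 (0 of 28). Losses in the rest fell mostly on weak control regions. In the lower 2 score quartiles of the control list 97 of 481 regions of the rest (20.2%, 16.7 to 24.0) were missing with both ligands. In the windows it was 4 of 55 (7.27%, 2.02 to 17.6), and over all regions 28.2%.

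Wnt3a left far more control regions without a peak, in the windows as elsewhere. Of 165 control regions 52 (31.5%, 24.5 to 39.2) were lost, against 441 of 1193 (37.0%, 34.2 to 39.8) in the rest and 46.5% of all, a difference of -5.45 points (-12.6 to 2.46). The windows split: 5 of 28 (17.9%, 6.06 to 36.9) were lost in 19q13.12 to 19q13.13 and 13 of 67 (19.4%, 10.8 to 30.9) in 19q13.43, but 17 of 34 (50.0%, 32.4 to 67.6) in 19q13.41 to 19q13.42, 11 of 27 (40.7%, 22.4 to 61.2) in 19p12 and 6 of 9 in 19q13.31. Without 19q13.43 the difference turned to 2.83 points, and in the upper 50% of each list to 6.33, both with intervals that include 0. Without 19q13.41 to 19q13.42 it was -10.25 (-17.63 to -1.65). The Wnt3a list was the shortest of the 4.

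The region with the highest mean percentile over the 4 lists is described for each window; this choice favours regions that are strong in every list. In 19p12 it was 20162458 to 20163677, at the 98.7th, 99.5th, 97.1st and 99.7th percentile of the control, Activin A, Wnt3a and combined lists. In 19q13.12 to 19q13.13 it was the boundary region at 36705036 already described. The best of 19q13.31, at 44617028 to 44617974, was weaker in control (65.3) and Wnt3a (71.9) than in the Activin A (95.0) and combined (93.0) lists. In 19q13.41 the region 52691803 to 52694244 stood at 99.0, 99.8, 96.1 and 99.6. The region at 59083736 to 59085508 in 19q13.43 stood at 98.6, 99.9, 98.5 and 99.4.

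The strongest gains were picked for a high score in the treated list and, by definition, had no control peak. After Activin A the highest score was at 38145965 to 38147409 in 19q13.12, at the 92.3rd percentile of the Activin A list, the 53.4th of Wnt3a and the 83.2nd of the combined list. Next came 58458394 to 58459652 in 19q13.43 (91.0, 59.9 and 87.9) and 57049265 to 57050994 in the same band, which had no Wnt3a peak (90.4 after Activin A, 88.7 after both).

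One region led the gains both after Wnt3a and after both ligands. It lay at 53237416 to 53239484 in 19q13.41, at the 85.5th percentile of the Wnt3a list and the 94.2nd of the combined list, but only at the 37.9th of the Activin A list. The other leading Wnt3a gains, 58513523 to 58514632 in 19q13.43 (82.9) and 23869173 to 23870339 in 19p12 (82.3), were at 74.1 and 73.4 after Activin A and 78.1 and 77.3 after both. The other leading combined gains were 21203033 to 21204144 in 19p12, at 83.7, 63.8 and 92.0 in the Activin A, Wnt3a and combined lists, and 44763519 to 44764726 in 19q13.31, at 87.8, 60.2 and 90.9. All 3 treated lists thus had a peak at each of these 5 regions.

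Most of the few regions lost after Activin A ranked low in control. Of the 4, the highest control score was at 20188659 to 20189295 in 19p12, at the 55.6th percentile, and that region was still in the combined list (44.1). The next was 58398444 to 58399100 in 19q13.43 (24.6 in control, 20.0 with both ligands). The remaining pair, 53003696 to 53004177 (23.4 in control) and 53686415 to 53686946 (16.7), both in the 19q13.41 to 19q13.42 window, had a peak in no treated list; the last is outside the naming rule and is given to complete the set.

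Losses after Wnt3a reached much stronger regions. At 52429757 to 52431210 in 19q13.41 a region at the 91.0th percentile of control had no Wnt3a peak, while it stood at 91.2 after Activin A and 92.5 after both. The next, 44668459 to 44669724 in 19q13.31, was at 89.1 in control, 85.8 after Activin A and 85.3 after both, and 21182384 to 21183242 in 19p12 at 84.2, 85.7 and 85.1. With both ligands the leading losses were 44575866 to 44576868 in 19q13.31 (55.4 in control) and 21665588 to 21667098 in 19p12 (42.4). These were at 84.9 and 83.8 in the Activin A list and had no peak in the Wnt3a list.

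Among the 113 regions with a peak in every list, ranks were compared within the 13016 such regions of the genome. List length bears on which regions enter, since each needs a peak in the shortest list too, but the same regions were ranked in every library. The median shift from control was 0.830 percentage points after Activin A (middle 50% of shifts -12.2 to 14.5). After Wnt3a it was 1.42 (-13.8 to 17.9) and with both ligands 5.20 (-8.85 to 19.7). In the rest of the chromosome it was 1.18, -0.246 and 0.538, and over all regions -0.184, 0.102 and -0.273. With both ligands 70 of 113 (61.9%) ranked higher than in control, against 49.1% of all regions, and 28 (24.8%) rose by over 20 points while 13 (11.5%) fell by as much, against 18.0% and 18.3% of all. After Activin A 57 (50.4%, against 49.4%) and after Wnt3a 60 (53.1%, against 50.4%) ranked higher. After Activin A 17 rose and 18 fell by over 20 points (15.0% and 15.9%, against 17.6% and 18.1%), and after Wnt3a 26 and 24 (23.0% and 21.2%, against 22.2% and 21.7%). The 3 shifts share the control ranks.

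The windows did not shift alike. In 19q13.12 to 19q13.13 the median shift of 23 regions was -13.8 points after Wnt3a, -9.39 after both ligands and -3.87 after Activin A. After Wnt3a 10 of them fell by over 20 points (43.5%, against 21.7% of all regions). Another 4 rose by as much (17.4%, against 22.2%). In 19q13.43 the median shift of 54 regions was 6.51 points after both ligands, 3.30 after Activin A and 1.69 after Wnt3a. With both ligands 37 of the 54 ranked higher than in control (68.5%, against 49.1% of all regions). In 19p12 (16 regions) the medians were 0.405, 5.37 and 4.50 for Activin A, Wnt3a and both, and in 19q13.41 to 19q13.42 (17 regions) -0.472, 5.27 and 5.82. All 3 regions of 19q13.31 ranked higher than in control in each treated list, with medians of 16.1, 21.7 and 27.4. Apart from 19q13.31, in each window the middle 50% of shifts spanned more than the median shift. The windows also started at unlike ranks. Median control ranks of these regions, in order from 19p12 to 19q13.43, were 43.5, 60.1, 24.7, 33.5 and 50.0. Whether the shifts follow from the starting ranks was not tested.

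**Figure D4:**
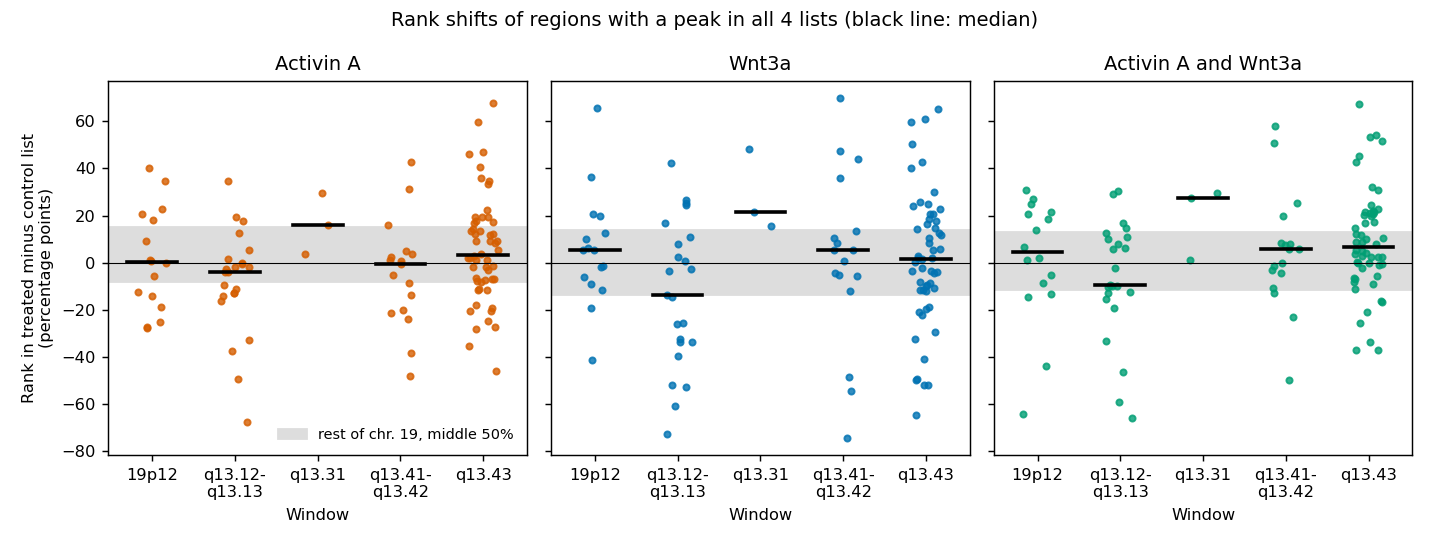
Rank of each region in the treated list minus its rank in the control list, in percentage points, for the 113 regions of the windows with a peak in all 4 lists; black lines are medians and the grey band spans the middle 50% of shifts in the rest of chromosome 19. The 19q13.12 to 19q13.13 regions lie mostly below 0 after Wnt3a (median -13.8), and those of 19q13.43 mostly above 0 after both ligands (median 6.51).

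Single regions moved far, and those that moved most after Activin A did so in the same direction after both ligands. The largest fall after either was at 38070554 to 38071568 in 19q13.12, ranked at 80.4 and 88.2 in the control and Wnt3a lists but at 12.9 and 14.4 in the Activin A and combined lists. Its neighbour at 38067570 to 38068248 followed the same course, at 65.0 and 91.4 against 15.8 and 6.05. The largest rise was at 56987960 to 56990084 in 19q13.43, ranked at 10.5 and 0.691 against 78.2 and 77.6. At these 3 regions the control and Wnt3a ranks were on one side and both libraries that received Activin A on the other. The region at 58608753 to 58610388 in 19q13.43 rose from 20.7 to 80.5 after Activin A and stood at 35.6 after Wnt3a and 72.4 after both.

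After Wnt3a the deepest falls were at 53072684 to 53074261 in 19q13.41, from 81.3 in control to 6.87 (33.1 after Activin A, 70.5 after both), and at 38084987 to 38086300 in 19q13.12, from 74.9 to 2.34 (58.6 and 72.5). The largest rises were at 53465419 to 53466933 in 19q13.41, from 1.29 to 71.1 (32.6 after Activin A, 52.2 after both), and at 22018375 to 22019545 in 19p12, from 24.1 to 89.5 (64.1 and 45.5). With both ligands the second deepest fall was at 24183255 to 24185186 in 19p12, from 86.1 to 21.9, where Activin A alone stood at 67.1 and Wnt3a at 91.5. The second largest rise was at 52641697 to 52643776 in 19q13.41, from 13.7 to 71.8, with 56.3 after Activin A and 60.9 after Wnt3a. These regions were picked for the size of their shift, which is therefore a description, and single libraries give no measure of how far ranks move between replicates.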

How the data were processed

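ATAC-seq libraries of H1 cells, 1 per group, were each represented by a deposited peak list with 5 columns. The submitters' processing notes name CASAVA 1.8, Bowtie2 2.2.2 and build hg19. Not given in the sources used here: depth, duplicate removal, any transposase offset and the settings of the peak caller. Scores are the authors' own, used as deposited. How the score was computed is not given either, and it may grow with depth, so it was read only as a percentile within its list. The choice of weak peaks depends on depth, which is unknown.

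Peaks overlapping by at least 1 base or book-ended were merged, and a region took its best peak's score. Shares carry exact (Clopper-Pearson) 95% intervals, differences carry Newcombe intervals, and matched differences weight the rest of chromosome 19 to the windows' score quartiles, with the interval of the windows' share alone. The count of gained regions and the score matching, there in deciles, were checked on a simulated control list. The merge was checked base by base on chromosome 19. The other steps had no such check. Named regions are the best of each window by mean percentile (absence counted as 0), the 3 top gained and lost regions per treatment, the 2 largest rank rises and falls, and those next to each boundary. The members and lists were chosen with earlier results of these data known. The sequence features planned for peaks needed an hg19 genome and were not run; RefSeq promoters were described instead. Bands came from circlize 0.4.16 and lengths from GenomeInfoDb 1.38.1, in R 4.3.3. Python 3.11.15, numpy 2.4.6, pandas 2.3.3, scipy 1.17.1 and matplotlib 3.10.9 were used.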

Additional observations from a re-analysis of the deposited data

How the results depend on the processing

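Differences between the windows and the rest of the chromosome, in percentage points, and density ratios were recomputed under alternative settings, which gave 164 values. Of these, 146 stayed within the interval of the reported value, 17 left it and 1 reversed. Of all 164, 14 had the opposite sign to the reported value. At equal list length the gained difference was -4.67 after Activin A and 1.79 after both ligands, which reverses it; the lost difference was -7.71 and -11.72, or -6.04 and -10.32 at matched score; the difference for regions in all 4 lists was 4.69; and the density ratio was 0.63 after Activin A and 0.72 after both. In the upper 50% of each list the gained difference was -9.68, 12.50 and -1.51 after Activin A, Wnt3a and both, the Wnt3a lost difference 6.33 and that for all 4 lists 1.99. Both settings use fewer peaks, and the cause was not tested. Without 19q13.43 the Wnt3a lost difference was 2.83, or 3.89 at matched score, and that for all 4 lists 5.74; without 19q13.41 to 19q13.42 the last was 16.91. Merging within 500 bases, membership by centre, absence within 1 kb, score deciles, leaving out band 19p13.2 and, chosen after seeing the data, leaving out the Wnt3a list or the centromeric bands kept each value within its interval. Depth is unknown for all libraries and limits every statement on weak peaks. No paired analysis was possible because every condition is a single library.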

Other observations

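Band 19p13.2, which holds another known zinc finger cluster among many other genes and was part of the comparison set, had 490 regions, or 70.0 per Mb. That density was above that of each of the 5 windows and near the 70.6 per Mb of the whole comparison set. Of its Activin A regions 249 of 442 (56.3%, 51.6 to 61.0) had no control peak, against 62.8% in the comparison set and 70.0% of all regions. Of its Wnt3a regions it was 37 of 160 (23.1%, 16.8 to 30.4), against 25.0% and 33.1%. Of its combined regions it was 170 of 361 (47.1%, 41.8 to 52.4), against 52.4% and 62.5%.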
